A study of Mus musculus with 12 samples.

Results

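The cells described here are single blood progenitors of the double mutant mouse whose wells held Cdkn1a transcripts. A member was a well of a plate with the homozygous double mutant genotype label that had at least 5000 transcripts outside the spike-in controls, at least 2 of them from Cdkn1a and at least 1 Cdkn1a transcript per 10000. Transcripts were counted as UMIs, the random tags that mark single molecules. The rule found 150 members among 656 double mutant wells of that depth, in a series of 2644 such wells on 12 plates. Cdkn1a chose the members, so its own values below are a description with no test. The reference was the 276 double mutant wells with 0 Cdkn1a UMIs, called zero wells here, and 230 wells lay between both classes.

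The study set 4 genotypes of C57BL/6J fetuses side by side, all taken as LSK cells from the liver at embryonic day 18.5. LSK cells are negative for lineage markers and positive for Sca-1 and Kit, a sort that holds haematopoietic stem cells and multipotent progenitors. WT has both genes intact, Rev1 knockout lacks the translesion polymerase REV1, and Pcna K164R carries 2 copies of a sliding clamp that cannot be ubiquitinated at that lysine. The double mutant, homozygous for Pcna K164R and for the loss of Rev1, carries both changes and was sorted on 4 plates, against 3 WT, 3 Rev1 knockout and 2 Pcna K164R plates. The labels name no tissue-restricted driver for either change. The labels do not say how many fetuses a plate holds or whether 2 plates of 1 genotype share them. A p-value thus measures how the difference between classes of wells varies from plate to plate, not from fetus to fetus. In the main fit that variation was pooled over double mutant plates and plates of the other genotypes.

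Cdkn1a encodes p21, which binds complexes of cyclins with cyclin-dependent kinases and holds the cell cycle back. Its best known activator is the transcription factor p53, which DNA damage stabilises and which binds paired copies of a short motif near its target genes. The same factor drives Mdm2, whose product marks p53 for destruction, and genes of cell death such as Bax, Bbc3 and Pmaip1, so a cell with active p53 can pause, repair or die.

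The p53 motif was sought in windows of the 250 bases before the annotated starts, in RefSeq promoters of GRCm38.p6. The p53 consensus half-site, by its usual name, was taken in 2 copies at most 3 bases apart with at most 1 mismatch over 20 positions, and it reads the same on both strands. Of 42 genes of the p53 target list with a promoter there, 5 held such a match (11.9%), against 98 of 27025 genes in all (0.363%). The list was gathered from known p53 targets, and Cdkn1a is counted in it. The matches are shown because they include Cdkn1a, which chose the wells, and Ccng1, the gene with the firmest difference below. Capitals mark the matched site and lower case up to 20 bases on each side of it, 5′ to 3′ on the gene's strand.
Cdkn1a: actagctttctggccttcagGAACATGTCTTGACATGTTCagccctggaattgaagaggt
Ccng1: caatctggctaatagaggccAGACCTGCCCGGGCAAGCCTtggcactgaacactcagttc
Bax: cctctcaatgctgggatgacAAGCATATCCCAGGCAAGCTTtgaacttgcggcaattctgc
Polk: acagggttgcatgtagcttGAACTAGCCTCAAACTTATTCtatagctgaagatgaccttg
Rps27l: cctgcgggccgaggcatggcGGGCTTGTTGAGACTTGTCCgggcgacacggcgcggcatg
The Cdkn1a stretch lies at chr17:29090908-29090967 on the plus strand, 51 to 32 bases before 1 of its 2 annotated starts. Cdkn1a, Polk and Rps27l had 2 windows each, and only 1 of the 2 held such a match. That of Ccng1 lies at chr11:40755442-40755501 and that of Bax at chr7:45467070-45467130, both on the minus strand. The Polk stretch is at chr13:96519378-96519437 on the minus strand and the Rps27l stretch at chr9:66946276-66946335 on the plus strand. None of the 5 stretches overlaps an annotated exon. A match describes letters in a window and shows no binding in these cells.

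Members made up a similar share of 3 of the 4 double mutant plates. They were 75 of 328 wells in replicate 1 (22.9%, exact 95% interval 18.4 to 27.8), 55 of 238 in replicate 2 (23.1%, 17.9 to 29.0) and 20 of 81 in the library labelled double mutant replicate 4 (24.7%, 15.8 to 35.5). Replicate 3 had only 9 wells of that depth and 0 members (exact 95% interval 0 to 33.6%). These intervals cover counting error only. By the same rule the other 3 genotypes gave 75 members of 1988 wells (3.77%). The WT plates held 9 of 361, 1 of 218 and 5 of 140 (0.459% to 3.57%), and the Rev1 knockout plates 7 of 296, 6 of 193 and 6 of 206 (2.36% to 3.11%). Both Pcna K164R plates stood higher than these, at 28 of 315 (8.89%) and 13 of 259 (5.02%). Replicates 1 and 2 and the library labelled replicate 4, whose Rev1 level goes against its label, were each above every plate of the other genotypes. Depth differed too, with a median of 32706.5, 38169 and 27283 UMIs per used well on these 3 against 10154.5 to 23312 on the other genotypes' plates, and a deeper well reaches 2 UMIs more easily. With every well thinned to 5000 UMIs, at least 1 Cdkn1a UMI was left in 21.3%, 26.9% and 21.0% of their wells against 3.67% to 12.1% on the other genotypes' plates. At least 2 were left in 8.84%, 11.3% and 3.70% against 0% to 3.81%, so by that measure the library labelled replicate 4 was inside the range of the other genotypes. The double mutant was chosen with this difference known, so the gap carries no test.

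**Figure D1:**
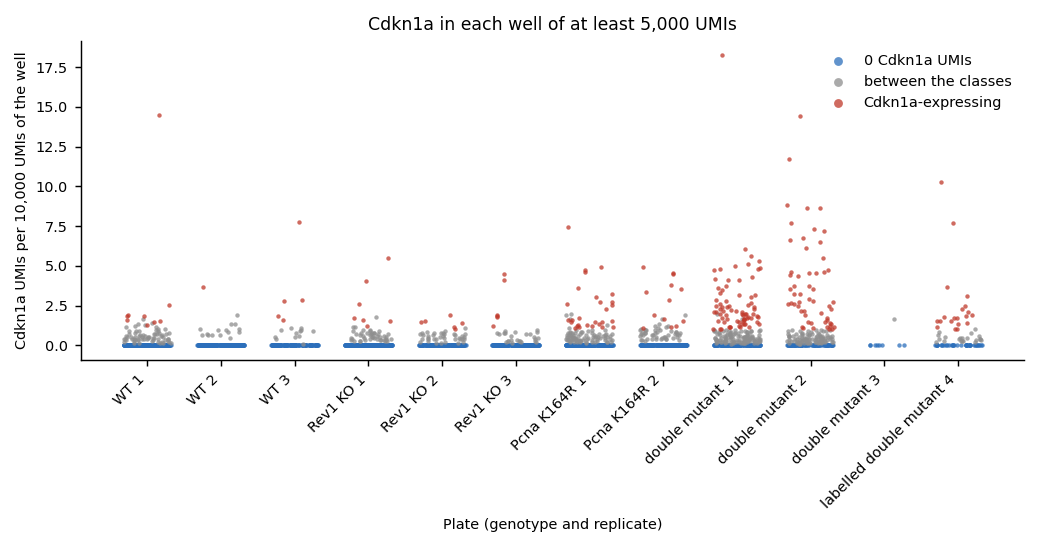
Cdkn1a UMIs per 10000 UMIs (y axis, linear) in each of the 2644 wells, by plate (x axis); each point is a well, coloured by class. Members are scarce on the WT and Rev1 knockout plates, and reach 18.2 per 10000 on double mutant replicate 1.

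The level of Cdkn1a among members was skewed. Members held 2 to 49 Cdkn1a UMIs with a median of 6.5, or 1.00 to 18.2 per 10000 with a median of 2.24 and quartiles of 1.53 and 3.74. In all they held 1518 of the 1899 Cdkn1a UMIs of the double mutant wells (79.9%). Just inside the rule were 17 members with exactly 2 UMIs and 19 below 1.2 per 10000. Just outside it were 99 wells with 2 or more UMIs and under 1 per 10000, of which 23 were at 0.8 or above and the highest at 0.987. A further 131 wells held 1 UMI, and 4 of these would have passed on the rate alone. The strongest member, on replicate 1, had 26 Cdkn1a UMIs among 14251, with 8 of Ccng1 and 51 of the proliferation marker Mki67. The well with most Cdkn1a UMIs, on replicate 2, had 49 among 41754, with 27 of Ccng1, 14 of Mdm2 and 7 of Phlda3. Of the 10 members with the highest rate, 2 held more than 50 C1q UMIs, the macrophage transcripts described below. These wells, on replicate 2, also held 13 and 11 UMIs of Kit and 18 and 20 of Mki67. Whether such wells held 1 cell or more was not tested.

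Several properties of the plates and wells bear on all that follows. In the used wells Rev1 gave 33 UMIs (14.0 CPM) in the library labelled double mutant replicate 4, inside the range of the WT plates (11.0 to 21.2 CPM), against 15 and 24 (1.30 and 2.50 CPM) in replicates 1 and 2, so that library goes against its label. The Rev1 knockout plates stood at 1.36 to 6.10 CPM. Which part of Rev1 is deleted is not given in the sources used here. Replicates 1 and 2 were sorted on one day and the library labelled replicate 4 on another, and members were always set against wells of their own plate. Median depth was 31364 UMIs in members and 29375.5 in zero wells of replicate 1, 35773 and 33688.5 in replicate 2, and 24974 and 27935 in the library labelled replicate 4. On these 3 plates the median mitochondrial share was 8.14% to 8.50% in members and 7.94% to 8.62% in zero wells. Wells with Xist and wells with Y-linked UMIs stood together on replicates 1 and 2, where members were 23.4% and 19.7% of the former and 22.7% and 23.3% of the latter. Wells holding both, which may be 2 cells, were 7 of the members (4.67%) and 6 of the zero wells (2.17%). All 12 plates use the same set of well barcodes, so barcodes do not tell plates apart.

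Genes were compared after every well was thinned to 5000 UMIs and summed by plate and class. Values of 3 plates are given as CPM, a gene's count scaled to a fixed total of counts, in the order replicate 1, replicate 2 and the library labelled replicate 4. The fit used these 3 plates and 7 plates of the other genotypes with at least 5 wells of each class, and left out double mutant replicate 3 and WT replicate 2. A gene passed at a Benjamini-Hochberg adjusted p under 0.05 in edgeR's quasi-likelihood test with the plate as a block. Of 7626 genes 8 were higher in members (0.105%) and 0 lower, with 173 higher (2.27%) and 110 lower (1.44%) at an unadjusted p under 0.05. DESeq2 on the same sums called 1 gene, Ccng1. Without replicate 2 the fit called 9 genes higher and 11 lower, and without the library labelled replicate 4 it called 21 higher and 0 lower. The 8 were 2 p53 targets, Ccng1 and Trp53inp1, and 6 genes of which most member UMIs came from a few wells with C1q transcripts.

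Ccng1 (chr11:40748552-40755309, GRCm38.p6), which encodes cyclin G1, a partner of a phosphatase that acts on MDM2, rose in members. It stood at 301, 356 and 300 CPM in members and at 97.2, 102 and 125 CPM in zero wells. Every member value was above every zero value, as for 4.24% of all genes, and the log2 fold change was 1.60 ± 0.23 (SE, edgeR adjusted p = 1.16e-06). Wells between the classes had 137, 120 and 152 CPM, nearer to the zero wells. After thinning, Ccng1 had a UMI in 69.3%, 74.5% and 65.0% of members and in 33.1%, 36.0% and 52.5% of zero wells, and before thinning in 97.3%, 89.1% and 95% against 81.0%, 90.7% and 92.5%. It was called in each of 20 alternative analyses, with log2 fold changes of 1.39 to 1.98 and an adjusted p of at most 0.0160.

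Trp53inp1 (chr4:11156441-11174379), a p53-induced nuclear protein that assists cell death and autophagy, also rose. Its levels were 58.7, 58.2 and 60 CPM in members and 11.3, 9.30 and 20 CPM in zero wells, again without overlap, as for 4.24% of all genes. The log2 fold change was 2.26 ± 0.51 (edgeR adjusted p = 0.0302). These are low counts, 22, 16 and 6 thinned UMIs in members, and the call was lost in 8 of 18 alternatives. Over all 18 its log2 fold change ranged from 1.70 to 2.86. Without thinning it was 2.68 ± 0.38 (adjusted p = 0.000767).

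Most other p53 targets stood on the same side without passing. Cdkn1a left aside, 49 genes of the list were in the files and 32 passed the filter on low counts. Of these 28 were above 0, 2 were called higher and 0 lower, 19 were higher at an unadjusted p under 0.05 and 0 lower, and the median log2 fold change was 0.89. Over all 7626 genes the median was -0.01 and 3683 were above 0, with 2.27% higher and 1.44% lower at an unadjusted p under 0.05. In each of the 3 plates 23 of the 32 were higher in members and 0 lower, against 11.5% of all genes higher and 12.9% lower. Only the 32 that passed the filter are in these counts, and the list was chosen with earlier results of these data known. Leaving out each double mutant plate in turn gave medians of 0.76 to 0.89, but the number higher at an unadjusted p under 0.05 was 7 of 30 without replicate 1, 13 of 32 without replicate 2 and 15 of 37 without the library labelled replicate 4. In sums over wells, more cells with a transcript and more transcripts per cell cannot be told apart.

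Among regulators of p53 itself, Mdm2 had 128, 160 and 130 CPM in members and 73.2, 72.1 and 80 CPM in zero wells. The groups did not overlap, as for 4.24% of all genes higher in members, and its log2 fold change was 0.91 ± 0.28 (edgeR adjusted p = 0.457). Mdm2 passed without thinning (1.15 ± 0.18, adjusted p = 0.00340) and without the wells holding C1q or mast protease transcripts (1.04 ± 0.27, adjusted p = 0.0495). Trp53, which encodes p53, had 168, 138 and 250 CPM in members and 208, 137 and 375 CPM in zero wells, a log2 fold change of -0.30 ± 0.22 that did not pass. Ppm1d, a phosphatase that switches p53 off, stood at 26.7, 25.5 and 40 CPM against 29.6, 25.6 and 40. The p53 regulator list as a whole had a median of 0.03, with 5 of 10 tested genes above 0.

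Targets that promote cell death had low levels, and those named here stood higher in members on each plate. Bax, which permeabilises the mitochondrial membrane, had 115, 105 and 120 CPM in members and 70.4, 62.8 and 60 CPM in zero wells. Its log2 fold change of 0.77 ± 0.30 had an unadjusted p of 0.0125 and an edgeR adjusted p near 1, and with another random thinning it was 0.47 ± 0.29. Bbc3, which encodes the BH3-only protein PUMA, had 18.7, 21.8 and 60 CPM in members and 5.63, 2.33 and 0 in zero wells. Pmaip1, which encodes the related protein NOXA, was under the filter after thinning, with 15 UMIs in members and 3 in zero wells. Without thinning both passed, Bbc3 at 2.01 ± 0.40 (edgeR adjusted p = 0.0298) and Pmaip1 at 3.61 ± 0.72 (adjusted p = 0.0316). The wider apoptosis list, which also holds Bcl2 family members and caspases, had a median of 0.02 with 11 of 19 genes above 0. Its genes higher at an unadjusted p under 0.05 were Bbc3 and Bax.

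Targets with other roles mostly stood higher in members as well. Phlda3, a repressor of Akt signalling, had 45.3, 69.1 and 40 CPM in members and 9.86, 20.9 and 15 CPM in zero wells (log2 fold change 1.84 ± 0.56). Aen, an apoptosis-enhancing nuclease, had 109, 120 and 90 CPM against 52.1, 39.5 and 70 (1.10 ± 0.31). Zmat3, an RNA-binding protein, had 77.3, 50.9 and 60 CPM against 28.2, 23.3 and 25 (1.30 ± 0.46). None of the 3 overlapped between classes, as for 4.24% of all genes higher in members. None passed, with edgeR adjusted p of 0.294 to 0.813, and Zmat3 was named after its values were seen. Polk, a translesion polymerase like REV1 and on the damage tolerance list too, stood at 42.7, 40 and 60 CPM against 22.5, 23.3 and 15. Its log2 fold change was 1.05 ± 0.48 with thinning and 1.35 ± 0.27 without, where it passed (edgeR adjusted p = 0.0339). Btg2, an antiproliferative gene, was higher in members of replicates 1 and 2 (48 and 43.6 against 7.04 and 9.30 CPM) and lower in the library labelled replicate 4 (20 against 30). Sesn1, a stress-induced regulator of growth signalling, had 77.3, 65.5 and 60 CPM in members and 73.2, 83.7 and 95 in zero wells, and Rps27l, whose promoter match is shown above, had a log2 fold change of 0.33 ± 0.20.

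**Figure D2:**
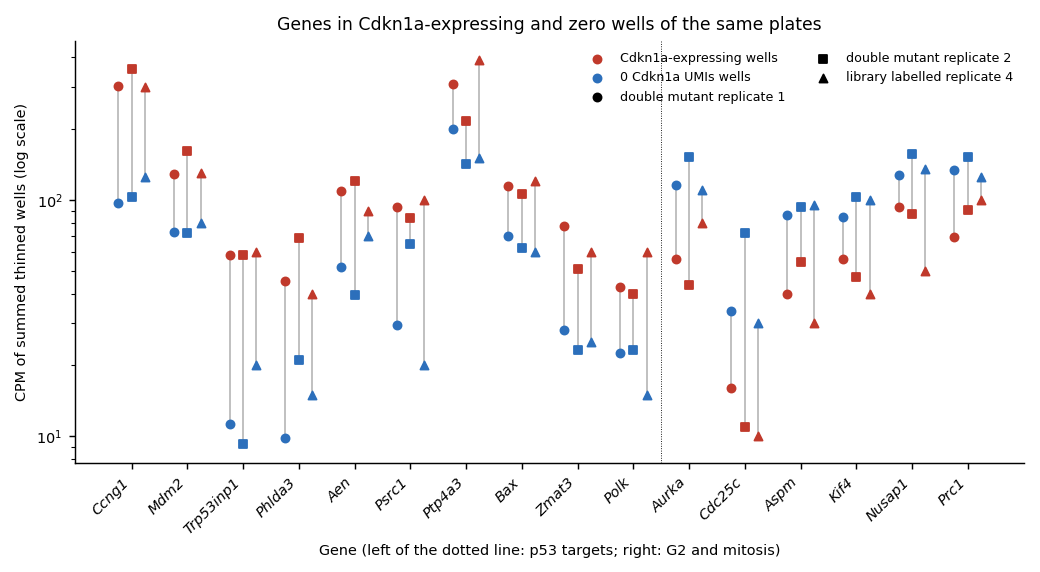
CPM of summed thinned wells (y axis, log scale) for 10 p53 targets and 6 genes of G2 and mitosis (x axis), in members (red) and zero wells (blue) of double mutant replicates 1 and 2 and the library labelled replicate 4; grey lines join the classes of a plate. Each p53 target shown is higher in members on each plate, as Ccng1 at 301 against 97.2 CPM in replicate 1, and each gene of mitosis lower. The genes shown were picked. Of all tested genes of these lists, 23 of 32 p53 targets were higher on each plate and 35 of 59 genes of G2 and mitosis lower. Over all 7626 genes 11.5% were higher and 12.9% lower on each plate.

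Without thinning more genes could be tested, 11141, and 17 were called (0.153%), 15 higher (0.135%) and 2 lower (0.018%). At an unadjusted p under 0.05 2.14% were higher and 1.26% lower, and of 44 tested p53 targets 28 were higher. Of these calls 9 higher were p53 list members: Ccng1, Trp53inp1, Phlda3, Mdm2, Eda2r, Bbc3, Pmaip1, Polk and Ddit4. The other 6 included Fam212b (4.29 ± 0.59), Serpine2, a secreted protease inhibitor (2.05 ± 0.36), the stress-induced growth regulator Ddit4l (4.97 ± 0.92) and Rnf169, which encodes a protein recruited to DNA breaks (1.16 ± 0.22). Serpine2 had 66.7, 58.2 and 80 CPM in members after thinning and 18.3, 9.30 and 25 in zero wells. Ddit4l rested on 10 thinned UMIs in members against 1 in zero wells, so its size is uncertain. The 2 lower were Prc1, a protein of the mitotic spindle midzone (-1.04 ± 0.21), and the mast cell protease gene Mcpt4, which was counted in 0 members and in 2 zero wells of replicate 1.

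The wells differed among themselves as well as between classes. The p53 list summed to a mean of 14.8, 14.5 and 16.0 UMIs per member thinned to 5000, to 9.18, 8.59 and 11.3 in the wells between, and to 8.65, 8.62 and 9.03 in zero wells. Single members ranged from 3 to 34, from 4 to 38 and from 6 to 39, so the ranges of both classes overlap well by well. Of the members 42 of 75, 27 of 55 and 10 of 20 were above the 90th percentile of the zero wells of their plate (56.0%, 49.1% and 50%), against 14.4%, 13.4% and 28.6% of the wells between. A median member had a UMI of 9, 9 and 9.5 list genes and a median zero well of 6, 7 and 6. Among members those at or above the median Cdkn1a rate of their plate's members had a mean sum of 15.4, 17.4 and 20.3 and the others 14.1, 11.4 and 11.7.

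Cell cycle genes were read next, since p21 acts on the cycle. The G2 and mitosis list had a median log2 fold change of -0.39 over 59 tested genes, with 7 above 0, 0 called in either direction, 17 lower at an unadjusted p under 0.05 and 1 higher. Over all 7626 genes 1.44% were lower and 2.27% higher at that p. The number of listed genes lower was 17 without replicate 1, and 9 without replicate 2 as well as 9 without the library labelled replicate 4, with medians of -0.33 to -0.44. In each of the 3 plates 35 of the 59 were lower in members and 3 higher, against 12.9% of all genes lower and 11.5% higher. Summed, the list held 40.2, 40.8 and 33.2 UMIs per member, 44.1, 48.2 and 40.0 per well between, and 46.5, 52.7 and 46.3 per zero well. The member means lay below every zero mean, while single members reached 127, 124 and 72 UMIs and so included wells rich in mitotic transcripts. Members above the zero median of their plate numbered 25 of 75, 13 of 55 and 4 of 20.

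Aurka, the mitotic kinase Aurora A, had the smallest p among lower genes. It stood at 56, 43.6 and 80 CPM in members and at 115, 151 and 110 CPM in zero wells, without overlap, as for 4.45% of all genes lower in members. Its log2 fold change was -1.19 ± 0.31 (edgeR adjusted p = 0.145), and it passed in the fit of double mutant plates alone. Cdc25c, the phosphatase that activates CDK1 at mitotic entry, had 16, 10.9 and 10 CPM against 33.8, 72.1 and 30 (-1.77 ± 0.55). Its member levels are the lowest of the genes named here and rest on few thinned UMIs, so its size is uncertain. Aspm, a spindle pole protein, had 40, 54.5 and 30 CPM against 85.9, 93.0 and 95 (-1.04 ± 0.36), and the kinesin gene Kif4 56, 47.3 and 40 against 84.5, 102 and 100. Prc1 had 69.3, 90.9 and 100 CPM against 134, 151 and 125 (-0.75 ± 0.28). Mki67 stood at 419, 538 and 280 CPM against 479, 572 and 600, a log2 fold change of -0.39 ± 0.24, and had a UMI in 70.7%, 74.5% and 70.0% of thinned members and 78.9%, 83.7% and 90.0% of zero wells (unthinned 94.7%, 94.5% and 85.0% against 93.7%, 93.0% and 95%). Most members thus still held Mki67 transcripts. Of the 3 listed genes higher in each plate, Psrc1, Gtse1 and Ckap2, all are on the p53 list too. Psrc1 had 93.3, 83.6 and 100 CPM in members and 29.6, 65.1 and 20 in zero wells (1.21 ± 0.36, adjusted p = 0.387).

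The S-phase list lay near 0. Its median was 0.07, with 31 of 50 genes above 0, 0 called and 0 at an unadjusted p under 0.05 in either direction, and its sums were 38.2, 36.9 and 43.5 UMIs per member against 36.8, 32.1 and 43.3 per zero well. Pcna, the clamp itself, stood at 1032, 964 and 730 CPM in members and 982, 747 and 955 in zero wells. Dtl, which helps destroy p21 at replicating DNA, had 168, 127 and 240 CPM against 123, 102 and 140 (0.48 ± 0.25, unadjusted p = 0.0547). Of G1 cyclins and other CDK inhibitors 9 of 16 tested genes were above 0, the median was 0.05 and none had an unadjusted p under 0.05 in either direction. Ccnd1 stood at 90.7, 105 and 100 CPM against 103, 114 and 110, and Cdkn1b, which encodes the inhibitor p27, at 16, 54.5 and 10 against 23.9, 37.2 and 35. Myc, which drives growth, had 90.7, 90.9 and 160 CPM in members and 118, 151 and 335 in zero wells (-0.70 ± 0.24, unadjusted p = 0.00517, edgeR adjusted p = 0.769).

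**Figure D3:**
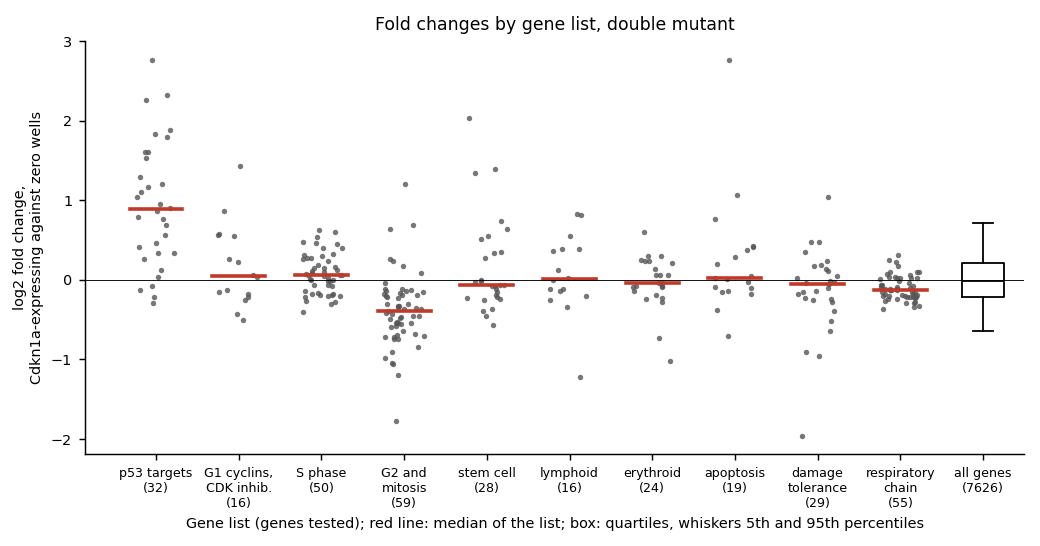
Log2 fold change of members against zero wells (y axis) for each tested gene of 10 lists and for all 7626 genes (box of quartiles, whiskers at the 5th and 95th percentiles); each point is a gene and red lines are list medians. The median is 0.89 for p53 targets and -0.39 for G2 and mitosis, and the other 8 lists shown have medians between -0.12 and 0.07. The lists shown were picked. Lists not shown include macrophage (median 2.11), mast cell and basophil (1.37), T and innate lymphoid (1.17), B-lineage (0.87) and megakaryocyte genes (0.44).

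Lineage genes were read to see which progenitors the members were. Kit, the sort antigen, stood at 235, 353 and 150 CPM in members and 262, 221 and 290 in zero wells. Ly6a, which encodes Sca-1, was low in both, at 21.3, 32.7 and 50 against 39.4, 32.6 and 25 CPM. The list of sort antigens had a median of -0.02 over 7 genes. Hlf, a stem cell transcription factor, was lower in members on each plate (157, 196 and 130 against 190, 281 and 165 CPM), with a log2 fold change of -0.39 ± 0.23 that did not pass (unadjusted p = 0.102). Without thinning it was -0.09 ± 0.22. After thinning, Hlf had a UMI in 48.0%, 52.7% and 35.0% of members and in 43.0%, 62.8% and 42.5% of zero wells, so in more members on replicate 1. The stem cell list had a median of -0.07 with 11 of 28 genes above 0, and the lymphoid list 0.01 with 9 of 16. Flt3, a receptor of multipotent and lymphoid-primed progenitors, stood at 77.3, 40 and 80 CPM against 91.5, 69.8 and 50. None of these genes passed the test in either direction.

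Erythroid genes went different ways on different plates. Their sum was 14.9, 22.0 and 18.7 UMIs per member against 13.9, 14.7 and 24.9 per zero well, higher in members of replicate 2 and lower in the library labelled replicate 4. The list median was -0.04, with 11 of 24 genes above 0 and 0 at an unadjusted p under 0.05. Gata1, the erythroid and megakaryocytic regulator, had 74.7, 127 and 170 CPM in members and 110, 90.7 and 185 in zero wells, and Klf1, the erythroid regulator, 104, 178 and 140 against 104, 90.7 and 190. The transferrin receptor gene Tfrc had 288, 309 and 240 CPM against 231, 202 and 325. When only wells with an erythroid share at or under the median of their plate were used, the p53 list had a median of 0.83 over 12 tested genes and the G2 and mitosis list -0.50. Above that median they were 0.75 over 20 genes and -0.24. Both lists kept their direction in wells poor and rich in erythroid transcripts.

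**Figure D4:**
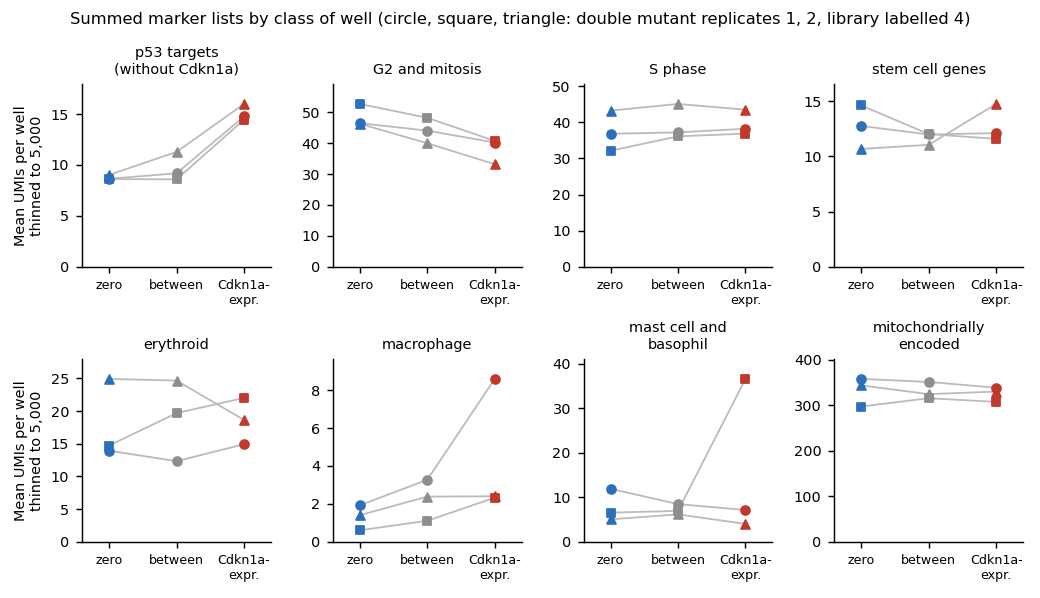
Mean UMIs per well thinned to 5000 (y axis, from 0) for 8 marker lists in zero wells, wells between the classes and members (x axis) of double mutant replicates 1 and 2 and the library labelled replicate 4. The p53 targets reach 14.8, 14.5 and 16.0 in members against 8.65, 8.62 and 9.03 in zero wells, the macrophage sum is higher in members on each plate, most on replicate 1, and the mast cell sum is high in members of replicate 2 alone.

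Most of the remaining calls moved with macrophage markers. Hmox1, which degrades haem, was called at 3.29 ± 0.46, Fcna at 2.79 ± 0.53, the adhesion gene Vcam1 at 2.25 ± 0.51, the growth factor receptor gene Csf1r at 2.20 ± 0.49, the scavenger receptor gene Marco at 2.04 ± 0.40 and the lipid carrier gene Apoe at 1.66 ± 0.30 (edgeR adjusted p of 1.16e-06 to 0.0302). All 12 tested genes of the macrophage list were above 0, with a median of 2.11, and 1.28 over 10 genes without replicate 1. Of the 15 listed genes in the files only 1 passed the filter on low counts without wells holding C1q or mast protease transcripts. Genes that pass through the wells rich in them tend to stand above 0, so this count is a description and no support. Wells with at least 5 C1q UMIs, the complement transcripts of tissue macrophages, were 11 of the members (7.33%), 19 of the wells between (8.26%) and 11 of the zero wells (3.99%). These 11 members held 84.2% of the member UMIs of Hmox1, 95.9% of Marco, 98.1% of Vcam1 and 55.1% of Apoe, but 3.32% of Ccng1, 2.27% of Trp53inp1 and 3.81% of Mdm2. The summed macrophage list was 8.60, 2.33 and 2.4 UMIs per member against 1.92, 0.605 and 1.40 per zero well. Without C1q and mast protease wells it was 0.380, 0.512 and 0.579 per member against 0.259, 0.381 and 0.324 per zero well. Apoe kept its call without the C1q wells (1.28 ± 0.29, edgeR adjusted p = 0.0325). Hmox1, Fcna, Marco and Vcam1 could not be tested without the C1q and mast protease wells, being under the filter on low counts, and Csf1r did not pass.

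Mast cell genes stood high in members of 1 plate. Their list summed to 7.13, 36.6 and 4.00 UMIs per member and 11.9, 6.53 and 5.03 per zero well, and all 7 members with at least 5 mast protease UMIs were on replicate 2. The list's median log2 fold change was 1.37, and -2.52 without replicate 2. Without the C1q and mast protease wells 6939 genes could be tested, of which 8 were higher (0.115%) and 5 lower (0.0721%), with 2.08% higher and 2.1% lower at an unadjusted p under 0.05. The higher ones were Ccng1 (1.70 ± 0.22), Trp53inp1 (2.34 ± 0.47), Btg2 (2.43 ± 0.59), Mdm2, Serpine2 (2.01 ± 0.48), the phosphatase gene Ptp4a3 (0.86 ± 0.20), Apoe (1.25 ± 0.29) and the embryonic globin gene Hbb-y. Thus 5 of the 8 were p53 list members, where 2 had been. Hbb-y was higher in members of replicate 2 alone, at 381 against 11.9 CPM, with 14.1 and 52.6 against 19.3 and 86.5 CPM on the other 2 plates, and 1 member held 843 of its UMIs before thinning. The lower ones were the imprinted antisense RNA Kcnq1ot1 (-0.56 ± 0.13), A630089N07Rik, Gm17821, Gm10785 and Vmn2r55, each with a log2 fold change between -0.10 and 0.09 when the C1q and mast protease wells were kept. Replicate 1 carried most of these differences, as for A630089N07Rik at 301, 330 and 674 CPM in members and 1116, 302 and 676 CPM in zero wells, and for Vmn2r55 at 206, 172 and 337 against 947, 114 and 314. Kcnq1ot1 was the one lower in members on each plate, at 1321, 1312 and 2211 against 3022, 1450 and 2649 CPM.

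Wells chosen by the same rule in the other genotypes were set beside those of the double mutant. In their 7 plates the p53 list had a median log2 fold change of 0.27, against 0.89 in the double mutant, and all genes had a median of -0.15 there against -0.01. Ccng1 rose there by 0.94 ± 0.23 (edgeR adjusted p = 0.00456), Phlda3 by 2.49 ± 0.56 (adjusted p = 0.00223) and the TNF receptor family gene Eda2r by 2.60 ± 0.76 (adjusted p = 0.0388). Trp53inp1 was at 1.23 ± 0.41 (adjusted p = 0.0953), Mdm2 at 0.20 ± 0.31 and Bax at -0.39 ± 0.44. The difference between double mutant and other genotypes was 0.66 ± 0.31 for Ccng1, 1.03 ± 0.64 for Trp53inp1, 0.71 ± 0.40 for Mdm2 and 1.15 ± 0.52 for Bax, with edgeR adjusted p of 0.791 to 0.941. None of the 13 genes that passed the test of the difference is on the p53 list (0.17% of 7626 genes passed), and a p that misses the threshold does not show that the effects were alike. The G2 and mitosis list had a median of -0.52 there, beside the same -0.15 for all genes. The other genotypes had 75 members on 8 plates, of which 10 held C1q and 10 mast protease transcripts, and 219 genes passed among them (2.87%).

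Across 647 double mutant wells, thinned Cdkn1a counts were ranked against every gene detected in at least 10% of them, 6390 in all. Ccng1 was most like Cdkn1a, with a Spearman coefficient of 0.192, 0.333 and 0.396 on the 3 plates, followed by Zmat3 (mean 0.193), Bax (0.191), Serpine2 (0.187) and Cyp51 (0.186), an enzyme of sterol synthesis. Mki67 ranked last (mean -0.187). These weak coefficients describe sparse counts of cells that share a plate, and carry no p. Cdkn1a counts of the same wells chose the members and zero wells, so the ranking is not independent of their comparison above.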

How the data were processed

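Single LSK cells were sorted into 384-well plates and sequenced by SORT-seq, per the labels' protocols. Per the labels, each plate has deposited tables of UMI counts per gene and well. The authors also deposited estimated counts of transcripts, which equalled the UMI counts corrected for tag collisions among 4096 tags, a formula tested on each table. The submitters' processing notes name BWA 0.7.15 and mm10 (GRCm38), with no role stated. Members and gene lists were chosen with earlier results of these data known.

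Wells with under 5000 UMIs outside the spike-ins were left out (2644 of 4608 kept). No doublet caller was run. Each well was thinned to 5000 UMIs and summed by plate and class, and genes were tested with edgeR 4.0.16 in R 4.3.3 (TMM, filter on low counts, quasi-likelihood test, Benjamini-Hochberg adjustment), with the plate as a block since members and zero wells share plates. Plates with under 5 wells of a class were left out. Cdkn1a was not tested. Replicate numbers only name plates. The code was tested on simulated data. Named genes were the up to 10 smallest p in each direction past an adjusted p of 0.05, up to 4 of each list by p, and a set of always named genes; the others (Zmat3, Kif4, Sesn1, Rps27l, Ppm1d, Ckap2, Gtse1, Dtl and those called in alternative fits) were chosen after their values were seen. Alternatives included DESeq2 1.42.0, no filter, no thinning, other well filters and each plate left out. Those without wells holding C1q, mast protease or both Xist and Y transcripts, and the block of plate with Xist or Y class, were chosen after seeing the data. Library totals were 11550977, 9599101, 77143 and 2355347 UMIs in used wells of double mutant replicates 1 to 4.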

Additional observations from a re-analysis of the deposited data

Results flagged for a closer look

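Double mutant replicate 3 had a member share of 0%, below the 22.9% to 24.7% of the other 3 plates by a gap that is wide against their range. It rests on 9 wells, and its exact 95% interval of 0 to 33.6% holds the other shares, so its share is not shown to differ. These wells were poor in genes. Its 8 zero wells, counted among the 276, had a median of 1174 genes at 8217 UMIs and a mitochondrial share of 3.23%. Zero wells of WT replicate 2 had medians of 3516 genes at 10019 UMIs and 8.20%.

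The effect of membership differed between the double mutant and the other genotypes for 13 genes by edgeR's test of the difference (adjusted p under 0.05), all lower in the double mutant. Of these, 6 are genes of mast cells and basophils: Prss34 (log2 difference -7.11), Cma1 (-5.75), Tpsb2 (-5.03), Cpa3 (-4.86), Hdc (-4.45) and Il1rl1 (-2.89). Their counts lay in few wells. Cma1 had 391 thinned UMIs in 6 double mutant members, 99.2% of them in 3 wells, and 1110 in 11 members of the other genotypes. Igll1 (-4.05) and Vpreb3 (-3.75), of the surrogate light chain of early B cells, had 27 and 36 thinned UMIs in double mutant members. The others were Creb3l1 (-4.48), Slc7a5 (-2.20), Serpinb1a (-2.20), Wdr92 (-1.85) and Basp1 (-1.64). Without C1q wells 11 of the 13 genes kept their call, and without C1q and mast protease wells 1 did. In the latter fit 6 genes of the mast cell and basophil list could be tested, against 13 with all wells. The part of rare B-lineage wells in these differences was not tested.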

How the results depend on the processing

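Ccng1 was called higher in all 20 alternatives, with log2 fold changes of 1.39 to 1.98. Of the other called genes Apoe kept its call in 12 of 20, Hmox1 in 11 of 17, Trp53inp1 in 10 of 18, Marco in 8 of 17, Fcna in 7 of 15, Csf1r in 6 of 17 and Vcam1 in 4 of 16. Of 519 values of 28 genes under the alternatives 404 kept direction and side of the threshold, 62 lost a call, 9 gained one and 44 changed sign.

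The number of genes called between members and zero wells was 8, and the number whose member effect differed between double mutant and other genotypes was 13. DESeq2 gave 1 and 1. Without the filter on low counts they were 23 and 21, and without thinning 17 and 3, as with the deposited transcript counts (17 and 3). Members with at least 3 UMIs and 2 per 10000 gave 4 for the first, and zero wells matched on depth gave 1 for the second. Wells of at least 10000 UMIs gave 3 and 22, and double mutant plates alone 13 for the first. Wells at or under the plate median of erythroid share gave 2 and 1, and those above it 5 and 0. Without C1q wells the first was 3, without C1q and mast protease wells they were 13 and 6, and with plate and Xist or Y class as the block the first was 5. Leaving out each double mutant plate gave 10 to 21 and 0 to 35. The cause of these changes was not tested. The settings also differed in the number of genes tested, from 1409 with matched zero wells to 16202 without the filter. It was 8938 without the library labelled replicate 4 and 9133 in wells of at least 10000 UMIs.

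The plate is the replicate block, since both classes lie on each plate. With no replicate block the counts were 1 and 1, and Kit stood at 0.0023.

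Most sign changes concerned genes near 0. Kit (-0.02) was at 0.071 with matched zero wells, 0.068 with stricter members, 0.068 in wells of at least 10000 UMIs, 0.039 in double mutant plates alone, 0.23 in erythroid-poor wells and 0.0058 with plate and Xist or Y class as the block, and at -0.46 to 0.24 with 1 plate left out. Ly6a (-0.22) was at 0.069 with another thinning seed, 0.16 with stricter members, 0.35 in wells of at least 10000 UMIs, 0.13 in erythroid-poor wells and -0.48 to 0.34 with 1 plate left out. Gata1 (-0.08) was at 0.32 with the other seed, 0.090 in wells of at least 10000 UMIs and -0.40 to 0.21 with 1 plate left out. Klf1 (0.24) was at -0.32 without thinning and with transcript counts, -0.22 in wells of at least 10000 UMIs, -0.091 in erythroid-rich wells and -0.20 to 0.46 with 1 plate left out. Tfrc (0.24) was at -0.29 without thinning and with transcript counts, -0.10 with the other seed and -0.21 in wells of at least 10000 UMIs. Ccnd1 (-0.15) was at 0.20 with the other seed, 0.042 with stricter members, 0.32 in erythroid-rich wells and 0.028 with plate and Xist or Y class as the block. Cdkn1b (-0.12) was at 0.36 with stricter members, 0.014 with plate and Xist or Y class as the block, 0.0049 without C1q wells, 0.033 without C1q and mast protease wells and -0.88 to 0.091 with 1 plate left out. Pcna (0.03) was at -0.026 with no filter, -0.024 with matched zero wells, -0.035 in wells of at least 10000 UMIs, -0.11 in erythroid-rich wells, -0.16 to 0.21 with 1 plate left out and -0.0067 without wells holding both Xist and Y transcripts. Flt3 was at 0.19 in erythroid-poor wells and H19, at -1.28 with all plates, at -2.53 to 0.045 with 1 plate left out.

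Thinning to 5000 UMIs left 7626 testable genes against 11141 without it, and Pmaip1, Fam212b and Ddit4l were among those lost. The library labelled replicate 4 had only 20 members, and replicate 3 entered no test.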

Other observations

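Genes of DNA damage tolerance, the pathway that the double mutant lacks in part, lay near 0 between members and zero wells, with a median log2 fold change of -0.05 and 11 of 29 tested genes above 0. The polymerase gene Polk was the one higher at an unadjusted p under 0.05, and Usp7, a deubiquitinase of MDM2 and p53, was among those lower (-0.52 ± 0.23). The list of Fanconi, checkpoint and homologous recombination genes had a median of 0.04 with 19 of 36 above 0, and interferon-stimulated genes 0.10 with 22 of 36. None of the 3 lists held a called gene in either direction. Respiratory chain genes had a median of -0.12 with 16 of 55 above 0, and genes of ribosome biogenesis driven by Myc -0.10 with 11 of 30. Mpo, which encodes myeloperoxidase of granulocyte precursors, stood at 483, 113 and 330 CPM in members and 170, 247 and 55 in zero wells (0.82 ± 0.30), higher on 2 of 3 plates and not past the threshold.

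Rare lineages differed by plate. The B-lineage list had a median of 0.87 over 7 tested genes, and -0.03 without replicate 2, with sums of 1.75, 1.73 and 0.05 UMIs per member against 2.20, 0.198 and 0.175 per zero well. The megakaryocyte list had a median of 0.44 with 7 of 9 genes above 0, and sums of 2.88, 2.38 and 3.25 against 1.74, 2.49 and 1.62, and Plek stood at 1.33 ± 0.49. The T and innate lymphoid list had 3 tested genes with a median of 1.17, and 0.04 without replicate 2. None of these 3 lists held a called gene in either direction.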
